A study of Macaca mulatta with 24 samples.

Results

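The cadherin and protocadherin genes measured in 4 areas of rhesus monkey neocortex are described here. Their members were the probe sets annotated with a single gene symbol that begins with CDH and a digit, or with PCDH. The rule found 66 probe sets for 40 genes, 20 cadherins and 20 protocadherins, of 14132 genes named on the array. The areas were the forelimb part of primary motor cortex (M1), dorsal premotor cortex (PMd), ventral premotor cortex (PMv) and A46, the prefrontal cortex lining the principal sulcus. Each was taken from the left and right hemispheres of the same 3 adolescent rhesus monkeys (Macaca mulatta), 2 males and 1 female aged 2.6 to 2.7 years, which lived in group cages and received no experimental treatment. Every piece was hybridised to its own one-colour Affymetrix Rhesus array, which gave 24 arrays, 6 per area. The female was animal 3.

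Cadherins are calcium-dependent adhesion proteins whose extracellular repeats bind the same or a related cadherin on the next cell. Type I and type II classical cadherins hold the actin cytoskeleton through catenins, and type II members are known from developing mammalian cortex for patchy expression by area and layer. Protocadherins share the extracellular repeats but not the catenin-binding tail. The clustered protocadherins lie in tandem arrays from which single neurons use a few promoters, and the delta protocadherins are separate genes with roles in axon growth, sorting and synapse turnover.

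Values are log2 of the deposited intensity, and each difference is one of log2 area means over the 3 animals, with the left and right arrays of an animal averaged first. An adjusted p is limma's, from a moderated two-sided test with Benjamini-Hochberg adjustment over 26383 probe sets, and a gene was called where it lay under 0.05. Levels of different probe sets are not set against each other, because probes differ in brightness at the same amount of RNA. Where all 6 arrays of an area lay above or below those of another, they came from 3 animals. The share of all genes with such separation was not counted. Of the 40 genes, 29 (42 probe sets) passed the filter on dim probe sets, a mean log2 intensity over all arrays of at least 5.62, and each gene was represented by its brightest probe set. The tissue was bulk cortex, so fewer cells of a type and less RNA per cell cannot be told apart in any difference below.

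The left PMv arrays of animals 1 and 2 stood apart from the rest: their median correlation with the other arrays was 0.984 and 0.988, against 0.991 to 0.993 for the others, and their values were less spread. Oligodendrocyte markers were graded over the areas. The 6 listed markers on the array summed to 18984 to 23993 intensity units over the 3 animals in M1, 14843 to 16844 in PMd, 15064 to 16990 in PMv and 9639 to 12628 in A46, and 5 of the 6 were called higher in M1 than in A46. The 5 neuronal markers summed to 15393 to 16528 in M1 and 15836 to 16162 in A46, and 2 of them were called higher in M1, 0 lower. The other 3 had differences below 0, and the median of the 5 was -0.14. Of the 5 astrocyte and 8 microglial markers, 1 each was called higher in M1 and 0 lower. The 5 markers of meninges and choroid plexus had a median difference of -0.27, with 4 below 0 and 1 called higher. The 6 endothelial and pericyte markers summed to 844 to 904 in M1 and 862 to 887 in A46, with 0 of 4 tested called. The part of these markers in the member genes' differences was not tested. The log2 gap between the 3′ and 5′ actin control probes, a sign of RNA integrity, was 0.94 ± 0.05 in M1, 0.99 ± 0.15 in PMd, 1.10 ± 0.14 in PMv and 1.08 ± 0.11 in A46 (SD, n = 3 animals each). The same gap of the GAPDH control probes was 0.96 ± 0.04 in M1, 0.95 ± 0.06 in PMd, 0.92 ± 0.06 in PMv and 0.84 ± 0.05 in A46, so its mean was higher in M1 than in A46 where that of actin was lower. The part of either in the differences was not tested.

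Over the areas, 4 of the 29 tested member genes were called by the F test for any difference: PCDH8 (adjusted p = 0.0030), CDH8 (adjusted p = 0.0058), PCDH11X (adjusted p = 0.015) and PCDHB13 (adjusted p = 0.021). Over all 10043 genes tested, 7.88% were called. PCDH8, CDH8 and PCDHB13 had their highest mean in A46, and PCDH11X in M1. Of all genes called by this test, 60.1% were highest in M1 and 33.8% in A46. Leaving out animal 1 gave 2 called members, where 2.68% of all genes were called. Leaving out animal 2 gave 0, where 0.518% were, and leaving out animal 3 gave 12, where 29.9% were, so the count of members moved with that over all genes.

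The comparison of M1 with A46 held the largest number of calls. Of the 29 genes, 8 were called, 7 lower and 1 higher in M1. Over all genes tested 14.7% were called, 5.89% lower and 8.77% higher. The 7 lower genes were 4 type II cadherins (CDH8, CDH9, CDH10 and CDH22), 2 delta-2 protocadherins (PCDH8 and PCDH18) and the clustered protocadherin PCDHB13, and the higher gene was the delta-1 protocadherin PCDH11X. The median difference over the 29 was -0.04, against -0.0012 over all genes, with 16 genes below 0 and 13 above.

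PCDH8 is the primate counterpart of rat arcadlin, an activity-induced protocadherin that takes N-cadherin off the synaptic surface in rat neurons. The 3 animals measured 9.64, 9.56 and 9.76 in M1, 9.88, 10.10 and 10.14 in PMd, 9.77, 9.83 and 10.26 in PMv, and 10.36, 10.28 and 10.33 in A46. All 6 M1 arrays lay below all 6 A46 arrays and below all 6 PMd arrays. The M1 minus A46 difference was -0.67 (SE 0.089, adjusted p = 0.00033), which is 1.59-fold lower, and it was -0.72, -0.73 and -0.57 in the 3 animals. The SD over the 3 animals was 0.27 in PMv and 0.04 in A46.

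CDH8, a type II cadherin with area-restricted expression in embryonic mouse cortex, had a similar size of difference. Its values were 7.74, 7.51 and 7.72 in M1, 8.18, 7.95 and 7.97 in PMd, 7.80, 7.71 and 8.07 in PMv, and 8.48, 8.30 and 8.14 in A46. Every M1 array and every PMv array lay below every A46 array, while PMd overlapped A46. The M1 minus A46 difference was -0.65 (SE 0.098, adjusted p = 0.00080), 1.57-fold lower, with -0.74, -0.80 and -0.43 in the 3 animals.

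CDH9, CDH10 and CDH22 fell in M1 by smaller amounts. CDH9, which in mouse hippocampus takes part in mossy fibre synapse formation, had 5.73, 5.82 and 5.74 in M1 and 6.11, 6.12 and 6.20 in A46, a difference of -0.38 (SE 0.092, adjusted p = 0.015). Single arrays overlapped, since the left A46 array of animal 1, the lowest of A46, was at 5.73 and the highest M1 array at 5.95. CDH22, described in rat pituitary and brain, had 8.08, 7.90 and 8.10 in M1 and 8.44, 8.27 and 8.40 in A46, a difference of -0.34 (SE 0.086, adjusted p = 0.020). CDH10 had 9.15, 9.12 and 9.26 in M1 and 9.43, 9.37 and 9.41 in A46, a difference of -0.23 (SE 0.067, adjusted p = 0.042). All 3 genes were lower in M1 in each animal, and the means of PMd and PMv lay between those of M1 and A46.

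The other type II cadherins did not pass in this comparison. CDH12, also known as brain cadherin, had 9.06, 8.99 and 8.72 in M1 and 8.89, 8.66 and 8.57 in A46 and differed by 0.22 (SE 0.068, adjusted p = 0.054). CDH18 differed by -0.18 (adjusted p = 0.18), CDH11 by -0.04 (adjusted p = 0.84) and CDH5 by 0.15 (adjusted p = 0.24). CDH5 is the cadherin of endothelial junctions. In the RefSeq gene table, CDH18, CDH12, CDH10 and CDH9 follow each other on one chromosome, with 2, 1 and 0 protein-coding genes between neighbours, and CDH8 and CDH11 adjoin with 0 between them. The differences of the adjoining CDH10 and CDH9 were -0.23 and -0.38, both called lower. Those of the neighbours CDH18 and CDH12 were -0.18 and 0.22, and those of CDH12 and CDH10 were 0.22 and -0.23. Those of CDH8 and CDH11, the latter by its brightest probe set, were -0.65 and -0.04.

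PCDH18 and PCDHB13 were the remaining genes lower in M1. PCDH18, whose mouse protein binds the adaptor Dab1, had 5.64, 5.59 and 5.59 in M1, 5.78, 5.79 and 5.74 in PMd, 5.82, 5.65 and 5.89 in PMv, and 5.93, 5.93 and 5.86 in A46. The 6 M1 arrays lay below the 6 A46 arrays, and the difference was -0.30 (SE 0.077, adjusted p = 0.023). Its M1 mean, 5.61, lay just under the filter on dim probe sets, and its other probe set was dimmer and not tested. PCDHB13, a member of the beta cluster, had 7.21, 7.24 and 7.53 in M1, 7.20, 7.13 and 7.69 in PMd, 7.18, 7.11 and 7.62 in PMv, and 7.62, 7.62 and 7.81 in A46. Its arrays overlapped between M1 and A46, and animal 3 had the highest mean in every area. Within each animal A46 was the highest of the 4 areas, and the M1 minus A46 difference was -0.36 (SE 0.078, adjusted p = 0.0094).

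**Figure D1:**
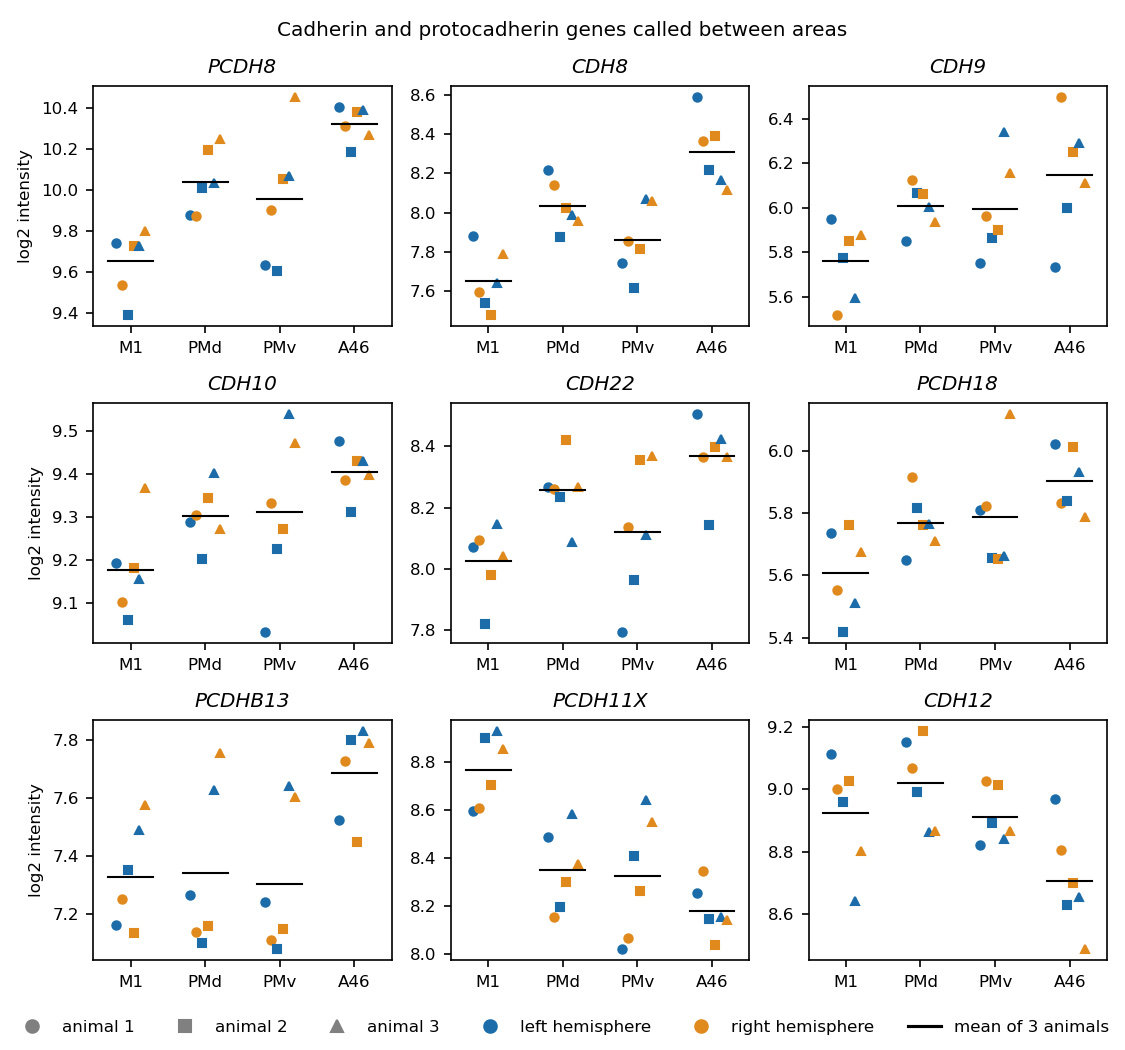
Log2 intensity of the 9 member genes called in at least 1 comparison of areas, by area (x axis, M1, PMd, PMv and A46). Each point is an array, with its shape giving the animal and its colour the hemisphere, and the line is the mean of the 3 animals. PCDH8 and CDH8 had their lowest mean in M1 and their highest in A46, PCDH11X had its highest in M1, and PCDHB13 was highest in A46, with the mean of animal 3 above those of the others in every area.

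The calls depended on which animals were kept. Without animal 2, 1 of the 29 genes was called between M1 and A46, PCDH8 (difference -0.64, adjusted p = 0.036), where 1.89% of all genes were called. Without animal 1 there were 3, PCDH8 and CDH8 lower and PCDH11X higher, where 7.28% of all genes were called. Without animal 3 there were 10, 8 lower and 2 higher, where 22.4% were. Over the alternatives tried, the adjusted p of PCDH8 ranged from 1.4e-05 to 0.036, and that of CDH8 from 7.0e-06 to 0.089. The ranges of CDH9, CDH10, CDH22, PCDH18 and PCDHB13 reached 0.52, 0.51, 0.26, 0.34 and 0.31.

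PCDH11X, an X-linked delta-1 protocadherin with a Y-linked copy in human, was the gene called higher in M1, and its 3 probe sets disagreed. The brightest, MmugDNA.3972.1.S1_at, had 8.61, 8.80 and 8.89 in M1, 8.32, 8.25 and 8.48 in PMd, 8.04, 8.34 and 8.60 in PMv, and 8.30, 8.09 and 8.15 in A46. All 6 M1 arrays lay above all 6 A46 arrays and all 6 PMd arrays, and the M1 minus A46 difference was 0.59 (SE 0.10, adjusted p = 0.0024). A second probe set, MmugDNA.24997.1.S1_at, ran the other way, with 5.66, 5.67 and 5.96 in M1 and 6.08, 6.03 and 6.53 in A46. That difference was -0.45 (SE 0.091, adjusted p = 0.0058). The third, MmugDNA.25012.1.S1_at, had 6.32, 6.63 and 6.20 in M1 and 6.59, 6.71 and 6.76 in A46, a difference of -0.30 (SE 0.095, adjusted p = 0.054). Averaged over its 3 probe sets, PCDH11X differed by -0.055 (adjusted p = 0.71), where the adjusted p over the alternatives ranged from 2.6e-05 to 0.71. No single direction can be given for the gene as a whole.

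**Figure D2:**
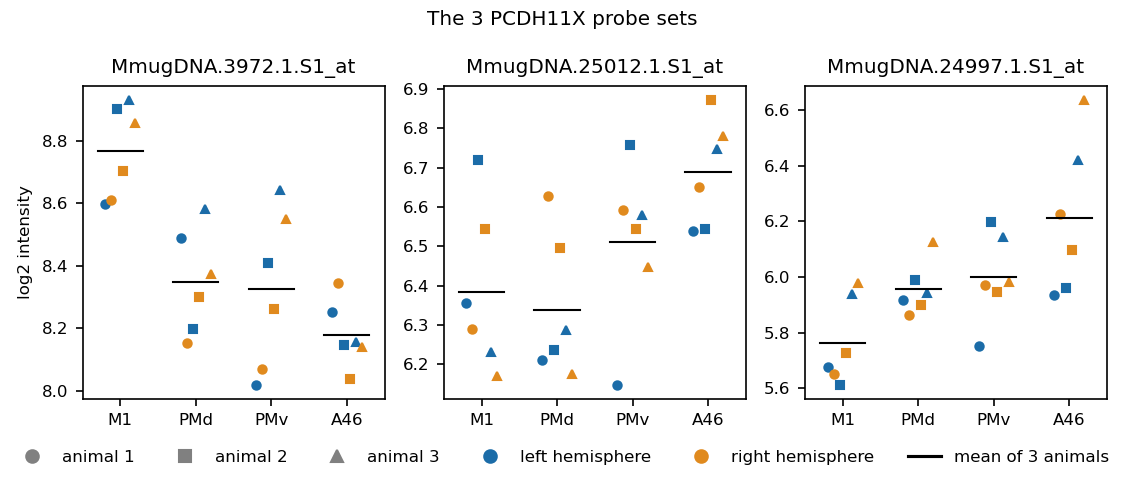
Log2 intensity of the 3 PCDH11X probe sets, 1 panel each, by area (x axis), with arrays as points, animals as shapes, hemispheres as colours and the mean of the 3 animals as a line. The brightest probe set was highest in M1, and the other 2 had their highest mean in A46.

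Among genes with more than 1 tested probe set, other disagreements stayed below the threshold. The 3 CDH11 probe sets, for a cadherin of mesenchyme and neurons, gave M1 minus A46 differences of -0.04, 0.22 and -0.12. CDH13, or T-cadherin, which is held in the membrane by a lipid anchor and has no catenin-binding tail, gave 0.08 and -0.05. CDH5 gave 0.15 and -0.11, PCDH10 gave 0.11 and -0.10, CDH3 gave -0.12 and 0.02, and CDH26 gave -0.01 and 0.00. The 4 probe sets of PCDHA5, an alpha-cluster gene, gave 0.12, -0.14, -0.14 and 0.07. PCDHAC2 was the remaining gene with more than 1, and its probe sets gave -0.12 and -0.05. The other genes called in a comparison of areas (PCDH8, CDH8, CDH9, CDH10, CDH12, CDH22, PCDH18 and PCDHB13) had 1 tested probe set each, so no second one could be compared.

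By subfamily, the M1 minus A46 differences were as follows, where 5.89% of all genes were called lower and 8.77% higher. Of the 8 tested type II cadherins 4 were called lower and 0 higher, with differences from -0.65 to 0.22 and a median of -0.20. Of the 3 delta-2 protocadherins 2 were called lower, and PCDH10, which takes part in striatal axon growth in mouse, differed by 0.11 (adjusted p = 0.45) by its brightest probe set and by -0.10 by the other. Of the 8 tested clustered protocadherins 1 was called, PCDHB13, with differences from -0.36 to 0.12 and a median of 0.00. The 3 type I cadherins, CDH3 (P-cadherin), CDH4 (R-cadherin) and CDH15 (M-cadherin of muscle), lay between -0.12 and 0.08, with 0 called. The 4 other cadherins, CDH16, CDH17, CDH23 and CDH26, lay between -0.055 and 0.11, with 0 called. PCDH20 differed by -0.18 (adjusted p = 0.24). No test of a difference between subfamilies was made, and the groups were written with earlier results of these data known.

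**Figure D3:**
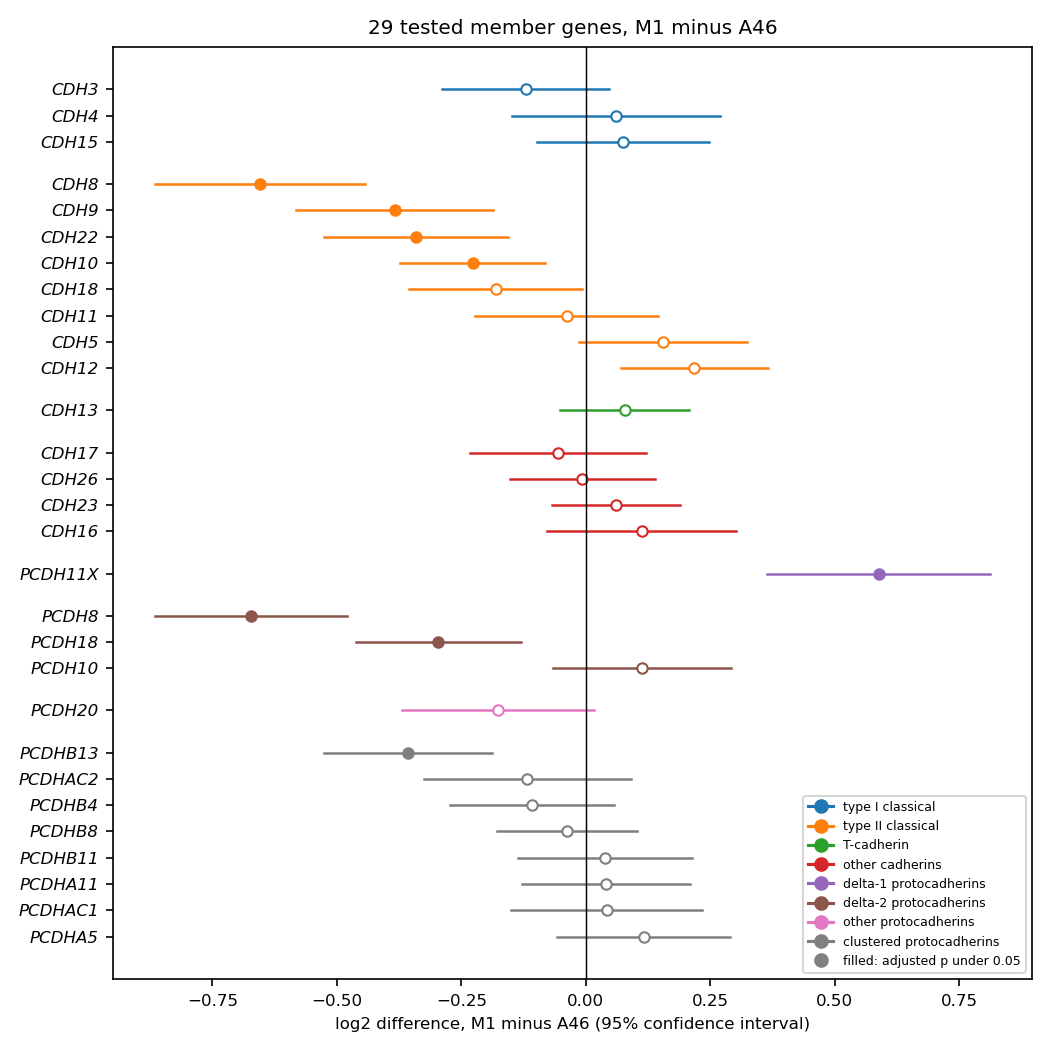
M1 minus A46 difference in log2 intensity (x axis) for the 29 tested member genes, 1 row each, grouped and coloured by subfamily. Points are estimates, bars are 95% confidence intervals and filled points have an adjusted p under 0.05. PCDH8 and CDH8 lie farthest to the left, at -0.67 and -0.65, and PCDH11X farthest to the right, at 0.59.

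Between the premotor areas and A46 few member genes were called. These comparisons share their A46 samples with the one above and with each other. In PMd, 2 of 29 genes were called against A46, 1 higher and 1 lower, where 2.51% of all genes were called, 1.81% higher and 0.697% lower. CDH12 was higher in PMd, with 9.11, 9.09 and 8.86 in PMd and 8.89, 8.66 and 8.57 in A46, a difference of 0.31 (SE 0.068, adjusted p = 0.035). PMd had the highest CDH12 mean of the 4 areas, and PMd exceeded A46 in each animal. PCDHB13 was lower in PMd, with a difference of -0.34 (SE 0.078, adjusted p = 0.042). CDH8 (-0.27, adjusted p = 0.19) and PCDH8 (-0.28, adjusted p = 0.13) did not pass. Without animal 1, and likewise without animal 2, 0 member genes were called, where 0.189% and 0.0597% of all genes were. Without animal 3 there were 5, where 11.8% of all genes were called. The adjusted p of CDH12 ranged from 0.0059 to 0.89 over the alternatives.

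In PMv, 2 of 29 genes were called lower than in A46 and 0 higher, where 1.54% of all genes were called, 0.826% lower and 0.717% higher. CDH8 differed by -0.45 (SE 0.098, adjusted p = 0.046) and PCDHB13 by -0.38 (SE 0.078, adjusted p = 0.037). CDH8 was lower by 0.68 in animal 1, 0.59 in animal 2 and 0.07 in animal 3. With the right arrays alone standing for PMv in animals 1 and 2, whose left PMv arrays stood apart, CDH8 differed by -0.39 (adjusted p = 0.028) and PCDHB13 by -0.39 (adjusted p = 0.016), and 4 genes were called, with CDH12 and CDH13 added, where 3.15% of all genes were. On all arrays the 6 PMv values of CDH13, 9.37 to 9.53, lay above the 6 A46 values, 9.15 to 9.28. The difference of 0.22 (SE 0.060) had an adjusted p of 0.086. The other tested probe set was lower in PMv than in A46 in animals 1 and 2 (-0.09 and -0.18) and higher in animal 3 (0.32). Its means were 8.38 in PMv and 8.36 in A46. PCDH8 differed by -0.37 (adjusted p = 0.065). Without animal 1, and likewise without animal 2, 0 genes were called, where 0.219% and 0% of all genes were, and without animal 3 there were 10, where 25.0% of all genes were called. The arrays quantile normalised again gave 5 called members, 2 higher and 3 lower, and over all genes 206 higher and 156 lower in place of 72 and 83.

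CDH5 had its lowest mean in A46 by its brightest probe set and its highest there by the other tested one. Its brightest probe set measured 6.71, 6.83 and 6.56 in M1, 6.75, 6.98 and 6.66 in PMd, 6.87, 6.86 and 6.71 in PMv, and 6.53, 6.53 and 6.57 in A46. All 6 PMd arrays lay above all 6 A46 arrays, while M1 and PMv overlapped A46. Neither the PMd minus A46 difference, 0.25 (adjusted p = 0.13), nor that of PMv, 0.27 (adjusted p = 0.11), passed, and the second probe set gave -0.10 and -0.04.

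M1 was also compared with the mean of both premotor areas, which asks whether primary motor cortex differs from its neighbours within the motor field. Of 29 genes 2 were called, 1 higher and 1 lower, where 2.71% of all genes were called, 1.76% higher and 0.946% lower. PCDH11X, by its brightest probe set, was higher in M1 by 0.43 (SE 0.090, adjusted p = 0.028), and by 0.42, 0.51 and 0.36 in the 3 animals. PCDH8 was lower in M1, with a difference of -0.34 (SE 0.077, adjusted p = 0.037) and of -0.18, -0.41 and -0.44 in the 3 animals. CDH8 differed by -0.29 (adjusted p = 0.11), CDH9 by -0.24 (adjusted p = 0.19) and PCDHB13 by 0.01 (adjusted p = 0.99). The 95% confidence interval of the PCDHB13 difference was -0.14 to 0.15. Without animal 2, 0 genes were called, where 0.129% of all genes were, and without animal 1, 1 was, PCDH11X, where 0.826% were. The mean over its probe sets gave PCDH11X a difference of 0.059 (adjusted p = 0.78), where the alternatives ranged from 0.0013 to 0.78. Quantile normalised again, the arrays gave 4 called members, 1 higher and 3 lower, and over all genes 213 higher and 222 lower in place of 177 and 95.

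Between PMd and PMv no member gene passed the test. Of 29 genes 0 were called by limma, where 0.0199% of all genes were, and 2 members, PCDHA11 and CDH18, had an unadjusted p under 0.05. PCDHA11, an alpha-cluster gene, had 9.71, 9.81 and 9.65 in PMd and 9.25, 9.45 and 9.52 in PMv. All 6 PMd arrays lay above all 6 PMv arrays, and above all 6 M1 arrays, but the PMd minus PMv difference of 0.32 (SE 0.078, 95% confidence interval 0.15 to 0.48) had an adjusted p of 0.78. CDH18 differed by 0.18 (adjusted p = 0.85). Of all alternatives, the fit without animal 3 alone called members here, CDH8 and PCDHA11, where 5.48% of all genes were called.

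The hemispheres were compared within each animal and area, over 12 pairs from 3 animals. Of the 29 genes 0 were called by limma, as for 0% of all genes. Left and right means per animal in place of the 12 pairs also gave 0 members. That fit called 4 of all 10043 genes, each lower on the left. The left minus right differences lay between -0.14 and 0.08, and 17 of the 29 genes were higher on the right. PCDH8 (-0.14, SE 0.052, adjusted p = 0.54) and CDH22 (-0.12, SE 0.047, adjusted p = 0.55) had an unadjusted p under 0.05, and each was higher on the left in 4 of 12 pairs. Whether the side difference changed with area was also tested, and 0 of 29 members and 0% of all genes were called, with an unadjusted p under 0.05 for PCDH8 alone among the members.

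Member genes varied between animals as well as between areas. Over the 12 means of a gene, the median share of the variance that lay between areas was 37.8% for the 29 genes. The median share between animals was 22.0%, and that of the rest was 24.4%. PCDH18, CDH8 and PCDH8 had the largest area shares, 79.0%, 78.6% and 76.7%. For the type II cadherins the medians were 53.7% for area and 23.5% for animal. For the 8 clustered protocadherins they were 16.2% for area and 48.9% for animal. These shares are descriptions, and 3 animals give a rough estimate of the spread between animals. Noise alone also gives a share to each, on average larger for 4 areas than for 3 animals. The area and animal shares are therefore not on one scale. They were not computed over all genes, so whether they are unusual for the array cannot be told.

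CDH11 had the largest animal share, 89.1%, with animal means of 9.78, 9.09 and 9.31 over the 4 areas. Animal 1 measured 9.66, 9.90, 9.67 and 9.90 in M1, PMd, PMv and A46, above both other animals in every area. The animal share of the other 2 tested CDH11 probe sets was 29.6% and 39.7%. Over the 4 areas both also had animal 1 highest and animal 2 lowest. Their means in animals 1, 2 and 3 were 7.85, 7.63 and 7.70, and 8.40, 8.19 and 8.26. In PMv, animal 3 lay above animal 1 in both of them (7.76 against 7.62, and 8.37 against 8.31). PCDHAC1, a C-type gene of the alpha cluster, had an animal share of 78.5% and animal means of 8.60, 8.61 and 8.99, so the female was above both males. The female was also highest in PCDHB13, where the means were 7.30, 7.28 and 7.66, and lowest in PCDHB4, where they were 7.74, 7.65 and 7.47. With 1 female, sex and animal cannot be told apart. Probe sets of clustered protocadherins may share sequence among paralogs, and PCDHB8 and the type I cadherin CDH3 were represented by probe sets whose suffix marks such sharing, so values of single clustered genes are uncertain.

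**Figure D4:**
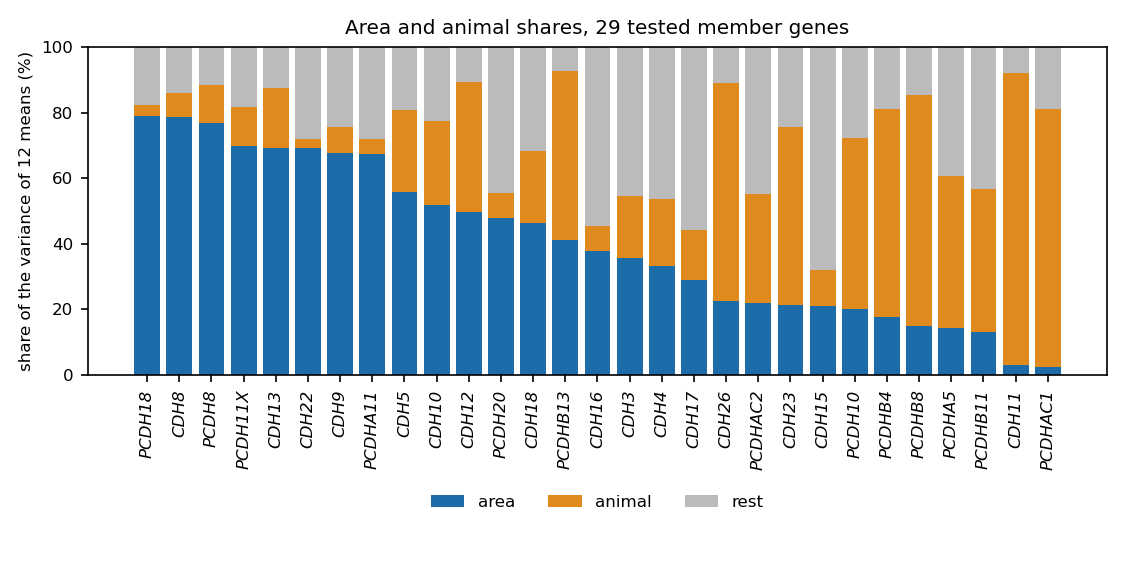
How the variance among the 12 means (y axis, percent of the total) was divided: between areas, between animals and in the rest, for each of the 29 tested member genes, ordered by the area share. PCDH18, CDH8 and PCDH8 stand at the left with 79.0%, 78.6% and 76.7% between areas, and CDH11 and PCDHAC1 at the right with 89.1% and 78.5% between animals.

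Several members with known roles in cortex passed the filter but no test. CDH13 had 9.33, 9.27 and 9.35 in M1, 9.34, 9.33 and 9.51 in PMd, 9.38, 9.49 and 9.51 in PMv, and 9.22, 9.21 and 9.28 in A46, so each animal was lowest in A46 by this probe set. Its other tested probe set was lower in M1 than in A46 in animals 1 and 2, with differences of -0.13 and -0.17. It was higher in animal 3, by 0.16, and the mean difference was -0.05 (adjusted p = 0.81). CDH18 had 8.19, 8.13 and 8.33 in M1, 8.38, 8.38 and 8.45 in PMd, 8.05, 8.16 and 8.45 in PMv, and 8.45, 8.38 and 8.36 in A46. The M1 values lay under the PMd values in each animal, while PMv spread over the whole range. PCDH10 had 8.95, 8.95 and 9.21 in M1, 9.10, 9.08 and 9.16 in PMd, 8.71, 8.96 and 9.28 in PMv, and 8.87, 8.89 and 9.02 in A46. PCDH20, a protocadherin outside the delta groups and clusters, had 7.06, 6.95 and 6.98 in M1, 7.27, 7.09 and 7.10 in PMd, 6.84, 6.95 and 7.15 in PMv, and 7.30, 7.13 and 7.10 in A46. CDH4, the R-cadherin of retina and brain, had 6.92, 6.88 and 7.14 in M1, 7.21, 7.05 and 7.13 in PMd, 7.29, 6.83 and 7.10 in PMv, and 6.90, 6.98 and 6.88 in A46. In CDH18, PCDH10, PCDH20 and CDH4 the arrays of every pair of areas overlapped.

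None of the tested clustered protocadherins other than PCDHB13 was called in a comparison of areas. PCDHAC1 had 8.62, 8.68 and 9.04 in M1, 8.57, 8.64 and 8.99 in PMd, 8.45, 8.50 and 9.11 in PMv, and 8.76, 8.62 and 8.83 in A46, and its area means spanned 0.091. The spans were 0.092 for PCDHB8, 0.10 for PCDHB11, 0.12 for PCDHA5, 0.17 for PCDHB4, 0.18 for PCDHAC2, 0.32 for PCDHA11 and 0.38 for PCDHB13. The spans of PCDH8 and CDH8 were 0.67 and 0.65. PCDHAC2, the other C-type gene of the alpha cluster, had 6.50, 6.60 and 6.84 in M1 and 6.86, 6.70 and 6.73 in A46, and its M1 minus A46 difference was -0.12 (adjusted p = 0.50).

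The 11 genes under the filter were not tested. They were CDH1 (E-cadherin of epithelia), CDH7, CDH19 and CDH20 of type II, PCDH7 of the delta-1 group, PCDH12 of endothelium, PCDH15 (a partner of CDH23 in the tip links of hair cells) and the beta-cluster genes PCDHB1, PCDHB3, PCDHB5 and PCDHB16. Their brightest probe sets had mean log2 intensities from 3.22 (PCDHB3) to 5.52 (CDH7), and such values do not show whether the genes were expressed. With the filter removed, PCDHB5 was called lower in M1 than in A46, with a difference of -0.38 (adjusted p = 0.038), and the other 10 were not called in that comparison. In that fit 1291 of all 14132 genes were called, 499 of them lower in M1. A further 13 genes of the family in the RefSeq table had no probe set with their symbol alone and were not analysed here. Among them were CDH2 (N-cadherin), CDH6, PCDH1, PCDH9, PCDH17 and PCDH19.

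Proteins that work with cadherins were looked at through 3 lists. Of 12 tested catenins and adherens junction partners, 4 were called lower in M1 than in A46 and 0 higher, where 5.89% of all genes were called lower and 8.77% higher, with a median of -0.11 against -0.0012 over all genes. NECTIN1 and NECTIN3, immunoglobulin-type adhesion proteins of the same junctions, differed by -0.53 (SE 0.061, adjusted p = 0.00013) and -0.53 (SE 0.15, adjusted p = 0.030). PTPRF, a receptor phosphatase that associates with cadherin complexes, differed by -0.37 (SE 0.058, adjusted p = 0.0012) and was lower by all 4 of its tested probe sets. CTNNA2, the neuronal alpha-catenin that ties cadherins to actin, differed by -0.45 (SE 0.10, adjusted p = 0.0095). NECTIN1 (-0.33, adjusted p = 0.0095) and PTPRF (-0.22, adjusted p = 0.038) were also called lower in M1 than in premotor cortex.

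Of 9 tested genes of the wider cadherin superfamily, 1 was called between M1 and A46, CLSTN3, a calsyntenin of synapses, at -0.32 (SE 0.064, adjusted p = 0.0054), and the list's median was -0.0018. Of 12 tested genes for protocadherin signalling and promoter choice, 2 were called lower and 1 higher, with a median of -0.05. Over all genes 14.7% were called in this comparison, against which the counts of both lists are to be read. PTK2B, a kinase bound by protocadherin tails, differed by -0.27 (adjusted p = 0.025), MLLT1, a reader of acetylated histones, by -0.36 (adjusted p = 0.0047) and the cohesin subunit SMC1A by 0.25 (adjusted p = 0.041). MLLT1 was also called lower in PMv than in A46, with a difference of -0.32 (adjusted p = 0.049). Of these 8 genes NECTIN1 alone kept its M1 minus A46 call in all 15 alternatives, where its adjusted p reached 0.028 at most, and the other 7 lost it without animal 2.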

How the data were processed

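Total RNA of 24 cortical pieces was biotin-labelled and measured on Affymetrix Rhesus arrays of one colour, per the labels' protocols. The deposited values are intensities on a linear scale that the authors summarised per probe set with RMA, per the submitters' processing notes; its version, and which arrays entered one normalisation, are not given in the sources here. RMA normalises probe values across arrays, so each difference is relative to the remaining probe sets of the same array. The deposited probe set values did not share a distribution: their interquartile range per array was 2.58 to 2.91 on the log2 scale. The median intensity per array was 47.9 to 51.7. Precision is limited by having 3 animals.

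Intensities were converted to log2 with a floor of 1, which 0 values reached. After 99 control probe sets were removed, 52766 remained, of which 24956 had 1 symbol, 361 several and 27449 none in the platform annotation given. Of these, 3 with several symbols name a gene of the family and lie outside the rule. Of 41 gene IDs of the members, 39 matched the RefSeq table (T2T-MMU8v2.0), and 0 symbols changed. Probe sets with a mean below the median, 5.62 (intensity 49.3), were left out. limma (version 3.58.1, R 4.3.3; lmFit, and eBayes with an intensity trend) was fitted to 12 animal-by-area means with area and animal as terms, which left 6 residual degrees of freedom beside a prior of 6.98. The numbers in the titles name the same 3 animals in every area, so the animal was kept as a block. As a check, deviations from the area means correlated within an animal at 0.207 to 0.85 over 18 pairs (median 0.606). Left minus right was fitted on 24 arrays with the pair as a term, leaving 11 residual degrees of freedom. The scripts were tested on simulated data.

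Every gene called in a comparison is named with its values, and each related list contributed up to 6 genes with the smallest p. The members, the subfamily groups, the lists and these rules were chosen with earlier results of these data known. Alternatives changed the filter, the log offset, the normalisation, the variance model, the probe set rule, the unit of analysis and the block, and left out each animal in turn.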

Additional observations from a re-analysis of the deposited data

Results flagged for a closer look

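Among the 29 tested member genes in the 4 areas, 2 arrays lay far from the other 5 of their area by Dixon's criterion, which flags about 1 in 20 groups by chance. PCDH10 in M1 was at 9.39 in the right array of animal 3, where the nearest other M1 array was at 9.04 and the lowest at 8.86. PCDH18 in PMv was at 6.12 in the right array of animal 3, where the nearest other PMv array was at 5.82 and the lowest at 5.65.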

How the results depend on the processing

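The 25 single-gene calls (14 of members, 11 of related genes) were refitted in 15 alternatives. All 25 kept direction and call without animal 3, with the arrays quantile normalised again, on 24 arrays with the pair as a random block, without the left PMv array of animal 1 and with the right arrays alone for PMv of animals 1 and 2; the last 2, and left or right arrays alone, were chosen after seeing the data. Without animal 1, 16 lost their call, and without animal 2, 23. PCDH11X in M1 minus A46 turned to -0.055 as the mean of its probe sets, of which 2 ran against the brightest. The stricter filter left 2 untested (CDH9 and PCDH18).

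The animals pair the samples. With no replicate block 17 single-gene calls were lost, and the member counts were 0 for any area (4 with the block), 5 for M1 minus A46 (8), and 0 each for PMd minus A46 (2), PMv minus A46 (2) and M1 minus premotor (2). Leaving out each animal in turn gave 0 to 12 for any area, 1 to 10 for M1 minus A46, 0 to 5 for PMd minus A46, 0 to 10 for PMv minus A46, 0 to 3 for M1 minus premotor and 0 to 2 for PMd minus PMv. Over all 10043 genes the same fits called 52 to 2999, 190 to 2254, 6 to 1185, 0 to 2515, 13 to 562 and 0 to 550, so the member counts moved with those over all genes. With no replicate block 133, 486, 2, 1 and 7 of all genes were called in the first 5. In the alternatives that follow, the share of all genes called ran from 2.38% to 13.5% for any area, was 5.58% for M1 minus A46, and ran from 0.657% to 1.79% for PMd minus A46, 0.478% to 4.97% for PMv minus A46 and 0.129% to 4.33% for M1 minus premotor. Any area gave 9 quantile normalised again, 8 on 24 arrays, 8 with right arrays alone for those PMv pairs and 2 on left arrays alone. M1 minus A46 gave 3 on left arrays alone. PMd minus A46 gave 1 with no filter, 0 with no intensity trend, 0 on left and 1 on right arrays. PMv minus A46 gave 5 quantile normalised again, 1 with no intensity trend, 4 on 24 arrays, 4 with right arrays alone for those PMv pairs, 1 on left and 0 on right arrays. M1 minus premotor gave 4 quantile normalised again, 1 with no intensity trend, 1 with the mean of probe sets and 0 on left arrays. Left minus right gave 0 members throughout, also by area, where at most 4 and 2 of all genes were called. The one-hemisphere and left-out-animal fits also had fewer samples. The cause of these shifts was not tested.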
